A study of Mus musculus with 24 samples.

Results

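A group of 10 mature microRNAs (miRNAs) known as markers of epithelium was followed in mouse subcutaneous fat: miR-200a, miR-200b, miR-200c, miR-141 and miR-429, which make up the miR-200 family, together with miR-203 and miR-205. They were taken by name and comprise 10 of the 1907 miRNA names in the counted table, with both arms of the hairpin for miR-200a, miR-200b and miR-203 and a single arm for the rest. The table holds small RNA sequencing counts from the subcutaneous adipose tissue of mice kept on a high-fat diet until day 1, week 1 or week 3, and of mice kept on a control diet as long, with 4 libraries in each of the 6 groups and 24 libraries in all. Both diets were sampled at each time, and no genotype or other treatment is named in the labels. The labels do not give the strain, sex or age of the mice, the fat content of the diets, or whether each library came from a separate animal, so the p-values measure the spread between these libraries, which may be partly technical.

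A microRNA lowers the output of messenger RNAs that pair with its seed, the stretch that starts at its second base. The miR-200 family represses the transcription factors ZEB1 and ZEB2, which in turn repress the family's own promoters and the genes of cell-to-cell adhesion, and high levels of the family are a known mark of epithelial cells. miR-203 is abundant in the differentiating layers of the skin, where it represses the stem cell factor p63, and miR-205 is known from the basal cells of stratified epithelia such as skin and from the mammary gland. Adipocytes are mesenchymal cells. Subcutaneous fat of the mouse can hold mammary ducts and lies against the skin.

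The mature sequences are shown because the family is defined by its seeds and because a difference of a few bases separates members that the counting had to tell apart. They come from RefSeq on GRCm38.p6, where 10 of the 10 names matched. The prefix mmu, for mouse, is left out of the names below. They are written 5′ to 3′ with the seed, bases 2 to 8, in capitals. miR-200a-3p and miR-141-3p share the seed AACACUG:
mmu-miR-200a-3p: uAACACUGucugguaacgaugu
mmu-miR-141-3p: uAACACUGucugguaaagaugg
The seed AAUACUG, which differs from it in a single base, is shared by miR-200b-3p, miR-200c-3p and miR-429-3p:
mmu-miR-200b-3p: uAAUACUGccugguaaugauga
mmu-miR-200c-3p: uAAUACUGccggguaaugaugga
mmu-miR-429-3p: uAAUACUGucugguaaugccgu
The other arms of miR-200a and miR-200b share another seed:
mmu-miR-200a-5p: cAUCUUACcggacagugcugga
mmu-miR-200b-5p: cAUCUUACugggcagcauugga
The arms of miR-203 and the single counted arm of miR-205 each carry a seed of their own:
mmu-miR-203-3p: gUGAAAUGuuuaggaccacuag
mmu-miR-203-5p: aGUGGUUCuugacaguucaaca
mmu-miR-205-5p: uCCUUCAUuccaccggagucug
No other mature mouse miRNA in the RefSeq set has any of these seeds. All are 22 bases long except miR-200c-3p, which has 23. Counted from 1 at the 5′ end, miR-200a-3p and miR-141-3p differ by C17A and U22G, and miR-200b-3p and miR-200c-3p differ by U11G and A22G over their first 22 bases. miR-429-3p differs from miR-200b-3p at 4 positions. How the authors' counting treated reads that fit more than 1 of these sequences is not given in the sources used here, so a small exchange of reads within the pairs that differ at 2 positions is uncertain.

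The family comes from a pair of clusters (mm10, GRCm38). The hairpins Mir200b, Mir200a and Mir429 lie together at chr4:156053905-156055750 on the minus strand, within the genes Ttll10 and Gm13648, where Mir429 overlaps an exon of Gm13648 and the other hairpins are intronic. Mir200c and Mir141 lie at chr6:124717914-124718390 on the minus strand, in an intron of Gm15884, and Mir141 overlaps an exon of Gm29008. Mir203 lies at chr12:112130880-112130955 on the plus strand, where no other gene overlaps it in the GENCODE M21 annotation, and Mir205 lies at chr1:193507463-193507530 on the minus strand in an exon of the long noncoding RNA gene 4631405K08Rik. The mature miR-203b-3p and miR-203b-5p, which are not among the names in the counted table, overlap miR-203-5p and miR-203-3p by 20 bases each on the opposite strand. Whether the counting used strand is not given, so reads from the 2 strands at this locus cannot be told apart.

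The libraries held between 1992607 and 16299177 counts, and a count of 3 corresponded to between 1.51 and 0.184 counts per 1000000 of these totals. At week 1 the high-fat libraries held 4138102, 4145974, 3426405 and 2542354 counts, against 5315057, 6570852, 8766138 and 16299177 in the control libraries. Every high-fat library of that week was thus less deeply sequenced than every control. The part of depth in the week 1 diet differences was not tested. Levels are given below as counts per 1000000 (CPM) on totals scaled by edgeR's TMM. All 7 miRNAs of the adipocyte list were present. miRNAs of other cell types varied widely: the summed level of the skeletal muscle list ran from 24.3 to 81042 CPM, and the 3 highest libraries were replicate 2 of the high-fat diet and replicate 4 of the control diet at week 1, and replicate 4 of the high-fat diet at week 3. No messenger RNA was measured, so keratins or other epithelial genes could not be checked, and the miRNAs alone do not separate skin from mammary duct. These are bulk samples, in which fewer cells of a type and less RNA per cell cannot be told apart.

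All 10 members were detected in every library and passed the filter on low counts, which kept 558 names. Together they took 0.767 to 4.06% of a library's counts, with a median of 1.503%. The 3p arm of miR-200a was the most abundant at 5785 ± 1815 CPM (mean ± SD over 24 libraries), 26th in level among the names tested. Below it came miR-200b-3p at 3004 ± 837 CPM and miR-203-3p at 2892 ± 2409.9 CPM, then miR-205-5p at 1739.9 ± 1386 CPM and miR-200c-3p at 1563 ± 479 CPM. miR-429-3p followed at 711 ± 239 CPM, miR-141-3p at 465 ± 169 CPM, miR-200a-5p at 232 ± 63.9 CPM, miR-203-5p at 146 ± 58.3 CPM and miR-200b-5p at 13.9 ± 3.998 CPM.

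Most neighbours in this order kept their places from library to library. miR-200a-3p exceeded miR-200b-3p in 24 of 24 libraries, and miR-200c-3p exceeded miR-429-3p in 24 of 24. By contrast miR-200b-3p exceeded miR-203-3p in 17 libraries, and miR-205-5p exceeded miR-200c-3p in 8, so the levels in these 2 pairs overlapped within their spread. For miR-200a, miR-200b and miR-203, where both arms were followed, the 3p arm was the more abundant in every library. Levels of different sequences in CPM also carry the ligation preferences of the library kit, which was the same for all samples.

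**Figure D1:**
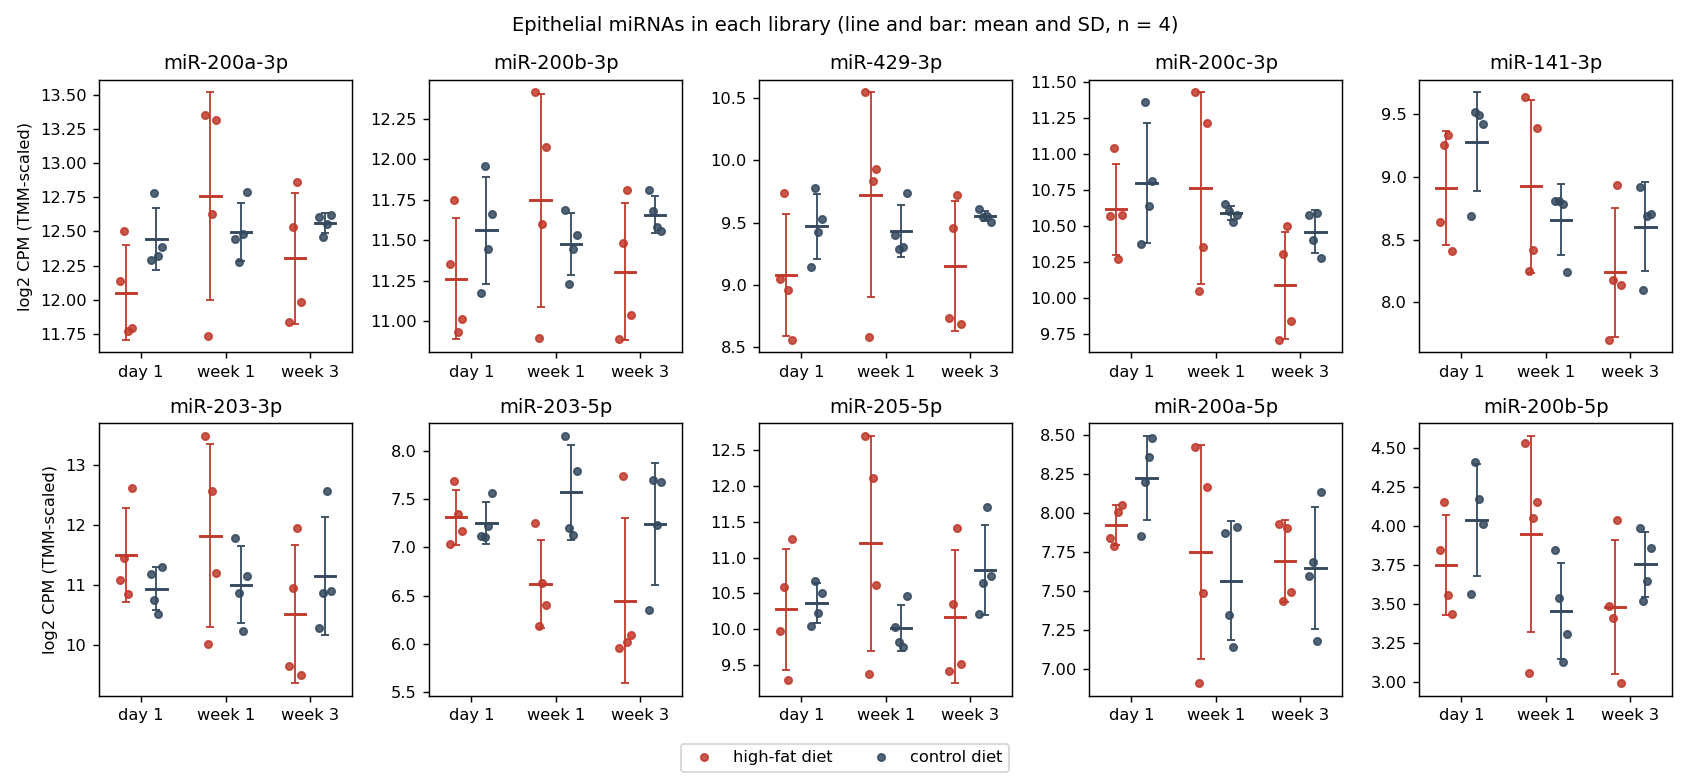
Level of each of the 10 miRNAs in each library (CPM, log axis), by time, with high-fat libraries left of control libraries. The members of the miR-200 family stay within a 4-fold band across the libraries, while miR-203-3p and miR-205-5p are scattered, with their highest points in the high-fat group at week 1.

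The members split into a steady group and a scattered one. Across the 24 libraries the highest value of a miR-200 family member was 2.87 to 3.95 times its lowest. For miR-203-3p that ratio was 15.6 and for miR-205-5p it was 10.7, while miR-203-5p, from the same hairpin as miR-203-3p, reached 4.59. The within-group coefficient of variation fitted by edgeR was 0.625 for miR-203-3p and 0.541 for miR-205-5p, above 94.98% and 91.9% of the names tested, and 0.262 to 0.326 for the miR-200 family, which is near the middle of the names tested. In 8 of the 10 members the highest library of all was high-fat week 1 replicate 1. The exceptions were miR-200a-5p, highest in control day 1 replicate 4, and miR-203-5p, highest in control week 1 replicate 1.

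Levels of the miR-200 family varied together. Over 24 libraries the log2 CPM of miR-200a-3p and miR-200b-3p, neighbours in the chromosome 4 cluster, had Pearson r = 0.93 (Spearman rho = 0.86) and 0.94 after each group's mean was removed. miR-200b-3p and miR-429-3p of the same cluster had r = 0.94 (rho = 0.90; 0.93 within groups), and miR-200c-3p and miR-141-3p of the chromosome 6 cluster had r = 0.80 (rho = 0.73; 0.72 within groups). Across the clusters, miR-200b-3p and miR-200c-3p had r = 0.81 (rho = 0.68; 0.93 within groups). In all, 9 pairs were tested by permutation with 100000 resamples and Benjamini-Hochberg adjustment, and these 4 had adjusted p of 2.25e-05 to 3.6e-05 for r and 9e-05 to 0.00069 for rho, where an unadjusted p of 1e-05 is the smallest the resampling can give. They held without the 2 libraries farthest from the median, with r = 0.70 to 0.91. All members share each library's total, on which CPM depends. Across the clusters, covariation of this size was not particular to the family. Outside the group miR-125b-5p, miR-31-5p and let-7c-2-3p had r of 0.83, 0.82 and 0.81 with miR-200b-3p, as high as that of miR-200c-3p. They were picked as the highest of all names and carry no test.

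A pair outside the family also varied together. miR-203-3p and miR-205-5p, which lie on different chromosomes and share no seed, had r = 0.87 (rho = 0.74) over 24 libraries, 0.92 within groups and 0.81 without the 2 farthest libraries (permutation test, adjusted p = 2.25e-05). The links from this pair to the family were looser: r was 0.50 for miR-200b-3p with miR-203-3p, 0.67 for miR-200b-3p with miR-205-5p, 0.53 for miR-200c-3p with miR-203-3p and 0.52 for miR-200c-3p with miR-205-5p (permutation test, adjusted p of 0.00048 to 0.0126). The Spearman rho of these 4 pairs was 0.45 to 0.67 (adjusted p of 0.00069 to 0.0257), and without the 2 farthest libraries their r was 0.23, 0.50, 0.28 and 0.28, so 3 of the 4 rest largely on those libraries. The miR-203-5p arm followed its own 3p arm less closely, with r = 0.32 over all libraries and 0.44 within groups, given here as a description. Among names outside the group, miR-183-5p had the highest r with miR-205-5p, 0.93 over 24 libraries, above the 0.87 of miR-203-3p.

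**Figure D2:**
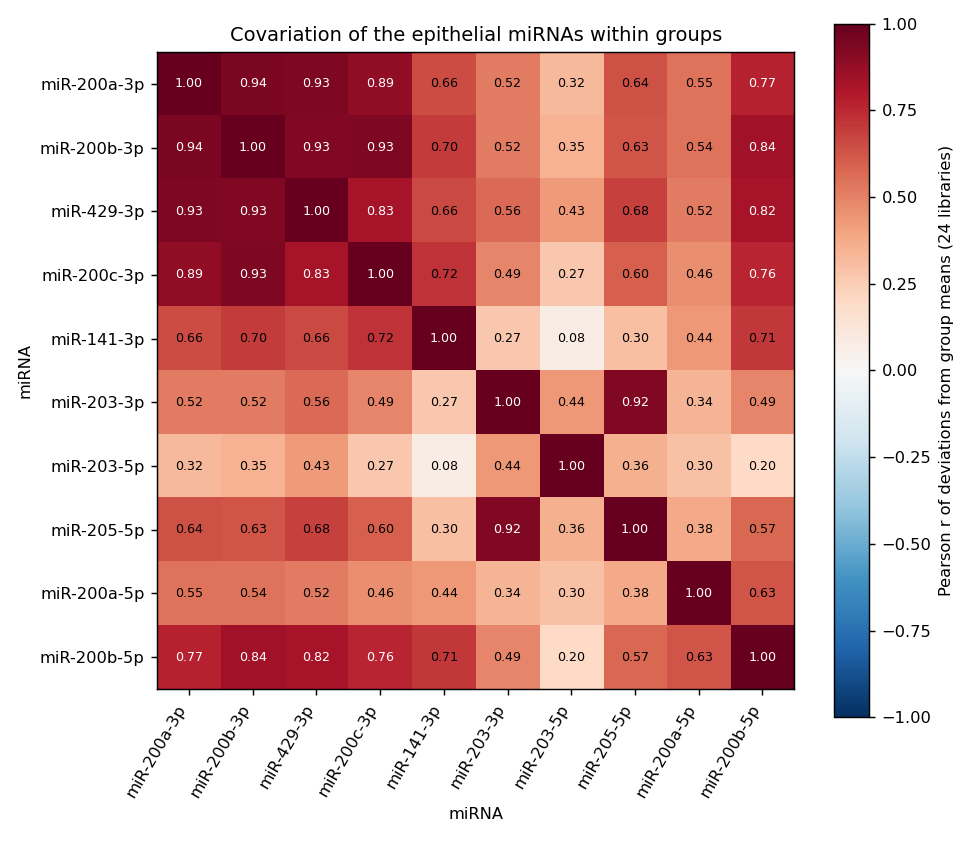
Pearson r between every pair of the 10 miRNAs, from the deviations of log2 CPM from the mean of each library's group (24 libraries; colour scale from −1 to 1). The 3p arms of miR-200a, miR-200b, miR-200c and miR-429 form 1 block with r of at least 0.83, and miR-203-3p and miR-205-5p form another at 0.92.

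The question the diet groups address is how the miRNAs of fat change early in high-fat feeding. At week 1 the widest differences among the members were in miR-205 and miR-203. miR-205-5p stood at 6659.6, 661, 4434 and 1572 CPM in the high-fat libraries, against 1039, 900.0, 858 and 1411 CPM in the control libraries. High-fat replicates 1, 3 and 4 lay above all controls and replicate 2 lay below all of them, so the groups overlapped. The mean of miR-205-5p was 3332 CPM with high-fat feeding and 1052 CPM without it. That is a log2 fold change of 1.66 ± 0.57 (± SE, n = 4 each), or 3.17-fold, and it did not pass the threshold of 0.05 (edgeR quasi-likelihood test over 558 names, adjusted p = 0.225).

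miR-203-3p put the high-fat libraries in the same order. It was at 11418, 1042, 6081 and 2343 CPM in high-fat libraries at week 1, against 3511, 1869.8, 1203 and 2281 CPM in control libraries. Replicates 1 and 3 of the high-fat group exceeded every control, and replicate 2 was below every control. The log2 fold change was 1.24 ± 0.67 (edgeR, adjusted p = 0.3725).

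The other arm of the same hairpin pointed the other way. miR-203-5p was at 152, 72.9, 99.3 and 84.8 CPM in high-fat libraries at week 1, against 285, 147, 139.8 and 222 CPM in control libraries. High-fat replicate 1 was above the lowest pair of controls, and the other high-fat libraries were below all controls. The log2 fold change was −0.95 ± 0.36, with means of 102 CPM in high-fat and 198 CPM in control libraries (edgeR, adjusted p = 0.225).

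The miR-200 family differed less at week 1. The log2 fold changes of its 3p arms were 0.28 to 0.43, that of miR-200a-5p was 0.26 ± 0.27 and that of miR-200b-5p was 0.56 ± 0.27 (edgeR, adjusted p of 0.3499 to 0.6643). In the most abundant member, miR-200a-3p, high-fat libraries held 10476, 3407, 6325 and 10220.0 CPM, against 5567, 4959, 5719 and 7076 CPM in control libraries. Here too replicate 2 of the high-fat group was the lowest library and replicates 1 and 4 were above all controls.

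None of the 10 members passed the threshold at week 1, and the share of all 558 names that passed was likewise 0%. By unadjusted p under 0.05 the count was 2 members and 79 of all names. limma-voom, run with sample quality weights that give deviating libraries less weight, called 17 names and DESeq2 called 0 at week 1, with no member in either. Of the 10 members, 9 had a log2 fold change above 0, with a median of 0.38, where 271 of the 558 names were above 0 with a median of −0.02. No member had groups that did not overlap, against 0.896% of names that were higher without overlap and 1.97% that were lower without overlap. The shared deviations between the members mean that 9 in 1 direction are not 9 separate observations.

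The week 1 differences of miR-205-5p and miR-203-3p rest on few libraries. Without high-fat replicate 1 the log2 fold change was 1.10 for miR-205-5p and 0.54 for miR-203-3p, and without high-fat replicates 1 and 3, a setting chosen after the values were seen, it was 0.17 for miR-205-5p and −0.29 for miR-203-3p. That of miR-203-5p was −1.22 without those 2 libraries, and −1.16 to −0.70 when any single library was left out. Without the 3 libraries highest in skeletal muscle miRNAs, 2 of which belong to week 1, miR-205-5p passed the threshold at a log2 fold change of 2.19 (edgeR, adjusted p = 0.0482). Those 2 were its lowest high-fat library of that week, at 661 CPM, and its highest control, at 1411 CPM. Leaving them out therefore widens the difference by itself. Names outside the group were also called in that setting, as counted further below. With the muscle level as a covariate the log2 fold change of miR-205-5p was 1.65 (edgeR, adjusted p = 0.188). The muscle list, of which 7 of 8 miRNAs were tested, summed to 1202, 81042, 12800 and 136 CPM in the high-fat libraries at week 1, against 559, 4798, 6906 and 18801 CPM in the controls. The leukocyte list, with 7 of 7 miRNAs tested, summed to 6287, 21675, 5886 and 17550.0 CPM in the high-fat libraries, against 41545, 50224, 31704 and 11685 CPM in the controls, so all 4 high-fat libraries were below 3 of the 4 controls, and 2 of them were above control replicate 4. The part of leukocytes in the result was not tested.

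**Figure D3:**
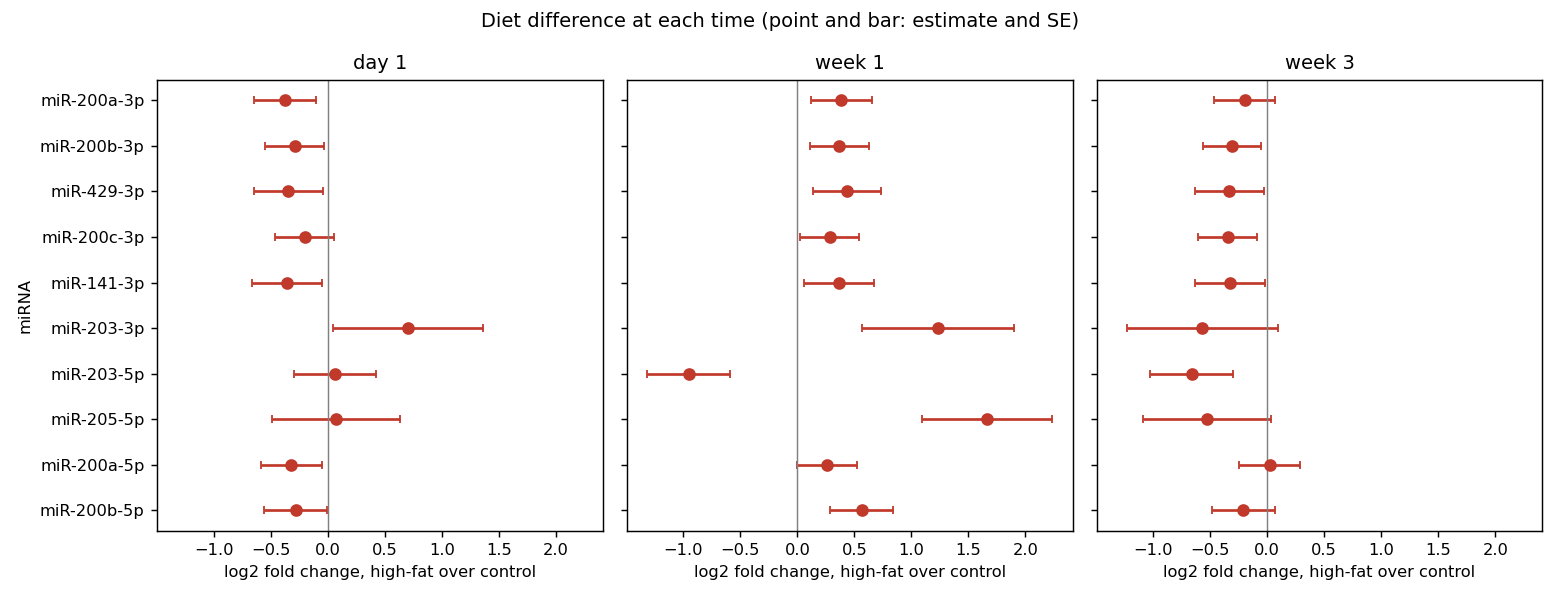
log2 fold change, high-fat over control, of each of the 10 miRNAs at day 1, week 1 and week 3 (points; bars are ± 1 SE from edgeR, n = 4 each). At week 1 miR-205-5p is at 1.66, miR-203-3p at 1.24 and miR-203-5p at −0.95, and the miR-200 family is at 0.26 to 0.56.

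At day 1 no member differed between the diets beyond the spread of its libraries. The 7 rows of the miR-200 family had log2 fold changes of −0.37 to −0.20, and no p adjusted over 558 names was below 0.9822 for any member (edgeR). miR-203-3p was at 2174, 2806, 1855 and 6287 CPM in high-fat libraries, against 2339.8, 1732, 1474 and 2510.4 CPM in control libraries. Its log2 fold change of 0.70 ± 0.66 became 0.20 without high-fat replicate 4, the library with the high value. For miR-205-5p, at 1001, 1538, 622 and 2455 CPM in high-fat libraries and 1052, 1634, 1196 and 1453 CPM in control libraries, it was 0.07 ± 0.56. The share of names called at day 1 was 0%, as for the members, with 17 names and 0 members at an unadjusted p under 0.05 in edgeR and 0 names called by DESeq2 or limma-voom.

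At week 3 the diets again overlapped in these miRNAs. miR-205-5p was at 679, 1299.7, 2731 and 728 CPM in high-fat libraries, against 1184, 1593, 3345 and 1711 CPM in control libraries, and miR-203-3p was at 811, 1974, 3936 and 731 CPM in high-fat libraries, against 1252, 1866, 6016 and 1907 CPM in control libraries. Replicate 3 was the highest library of its diet for both miRNAs, and the replicate numbers did not pair the libraries. The log2 fold changes were −0.53 ± 0.56 for miR-205-5p and −0.57 ± 0.66 for miR-203-3p. Without control replicate 3 they were −0.12 and 0.18, and without high-fat replicate 3 they were −1.06 and −1.18 (edgeR, none past the threshold).

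Lower values on the high-fat diet were also seen for miR-203-5p at week 3. It was at 62.1, 213, 64.8 and 68.3 CPM in high-fat libraries, against 81.7, 208, 150.3 and 205.2 CPM in control libraries. In the high-fat group 3 libraries were below all controls and replicate 2 was above all of them. The log2 fold change was −0.66 ± 0.36, and −1.26 without that replicate (edgeR, adjusted p = 0.999 and 0.153). Over the 3 times together miR-203-5p had a log2 fold change of −0.52 ± 0.21 (edgeR, adjusted p = 0.993), and the other members lay between −0.10 and 0.46. The names called were 0% at week 3, 0% for the mean of the 3 times and 0% for the joint test of whether the diet difference changed with time. At an unadjusted p under 0.05, edgeR counted 10 names and 0 members at week 3, 18 names and 1 member for the mean, and 41 names and 1 member in the joint test, and DESeq2 and limma-voom called 0 names in each. In the joint test miR-205-5p had the lowest p of the members (edgeR, adjusted p = 0.567).

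The arms of miR-203 were set against each other within each library, which removes the library total. At week 1 the 3p arm had 75.05, 14.3, 61.1 and 27.6 counts for each count of the 5p arm in high-fat libraries, against 12.3, 12.7, 8.60 and 10.3 in control libraries. Every high-fat library was above every control, although replicate 2 was above by little. The share of other hairpins whose arm ratio separated the diets without overlap is not given here. On the log2 scale the ratio was 5.20 ± 1.10 on the high-fat diet and 3.44 ± 0.26 on the control diet (SD, n = 4 each), a difference of 1.76 or 3.38-fold. The exact permutation test gave a two-sided p of 0.0286, which is the smallest that 4 against 4 can give, and 0.343 after adjustment over the 12 ratio comparisons made between diets at single times. Without any 1 of the 4 controls the exact p was 0.0571, with a difference of 1.64 to 1.83. Among the 167 hairpins with both arms tested, no other had a larger week 1 difference in this direction, and the 5th to 95th percentiles were −0.59 to 0.47, given as a description.

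At the other times the ratio did not separate the diets. At day 1 it was 16.6, 13.6, 11.4 and 43.6 in high-fat libraries and 16.8, 12.6, 9.88 and 13.2 in control libraries, a log2 difference of 0.50 (exact permutation p = 0.371). At week 3 it was 13.03, 9.26, 60.7 and 10.7 in high-fat libraries and 15.3, 8.99, 40.0 and 9.29 in control libraries, a log2 difference of 0.15 (exact permutation p = 0.743). Over the 3 times together the difference was 0.80, with an exact p of 0.0452 over 343000 regroupings within times and 0.181 adjusted over 4 ratios. Leaving out a single library gave differences of 0.60, without high-fat replicate 3 of week 3, to 0.96, and an exact p above 0.05 for 13 of the 24.

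Across all libraries the ratio fell into a dense low range and a few high values. In 18 libraries it was 8.60 to 16.8, and in the other 6 it was 27.6 to 75.05, with nothing between. Of those 6, 5 were high-fat libraries and 1, replicate 3 of week 3, was a control. The 5 libraries with the highest miR-203-3p were all among the 6. As miR-203-3p is the numerator of the ratio, this overlap is partly built in. In those 5 libraries miR-203-5p was not raised in step with miR-203-3p. It was at 152 and 99.3 CPM in high-fat week 1 replicates 1 and 3, and at 144 CPM in high-fat day 1 replicate 4. In replicate 3 of week 3 it was at 64.8 CPM on the high-fat diet and 150.3 CPM on the control diet. Its median over all libraries was 145 CPM. By contrast, 3511 CPM of miR-203-3p in control week 1 replicate 1 came with the highest miR-203-5p of all, 285 CPM. The uncertain strand at this locus touches both arms. Elsewhere in the table, miR-126a-5p is listed at 0 in every library where miR-126a-3p averaged 88132 CPM, a pair named after its values were seen. Any bearing of that pair on the miR-203 arms was not tested.

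**Figure D4:**
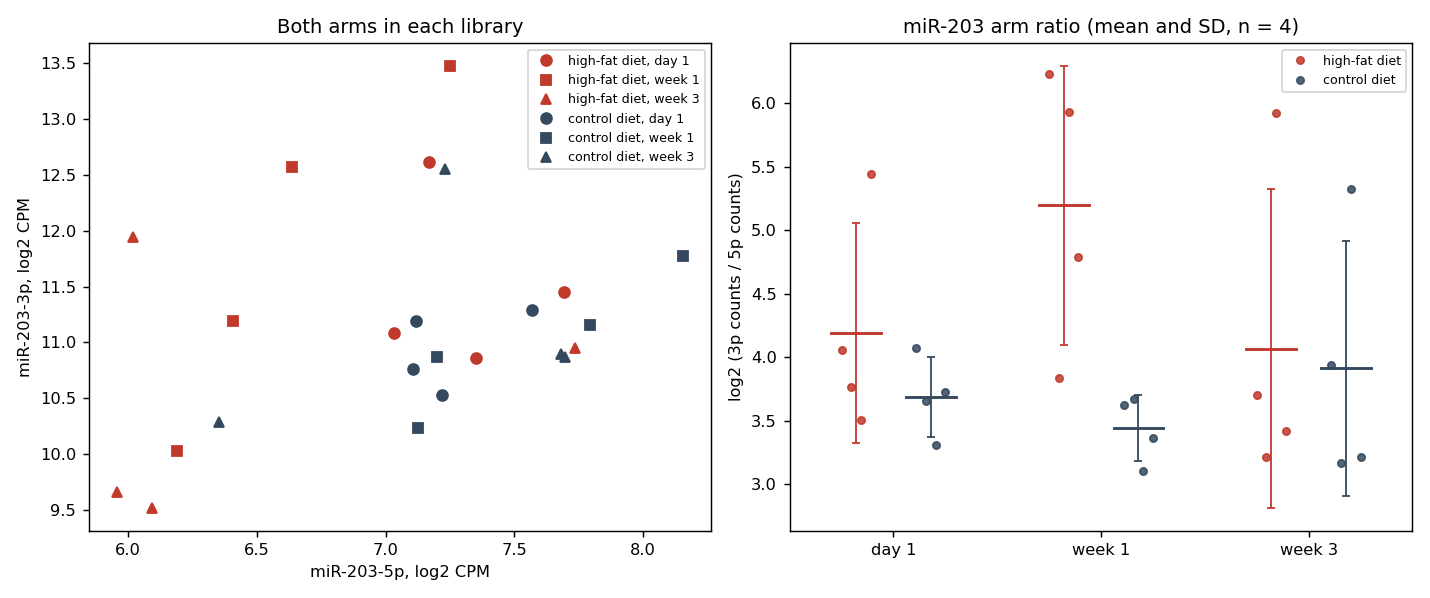
miR-203-3p against miR-203-5p in each library, and their ratio by time and diet, with high-fat libraries left of control libraries. The ratio lies at 8.60 to 16.8 in 18 libraries and at 27.6 to 75.05 in 6, of which 5 are of the high-fat diet.

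In the miR-200 family the ratios did not differ between diets beyond their spread with all libraries kept. They were the 3p to 5p ratio of miR-200a, that of miR-200b and the ratio of the chromosome 4 cluster to the chromosome 6 cluster. The cluster ratio took the summed counts of miR-200a-3p, miR-200b-3p and miR-429-3p over miR-200c-3p and miR-141-3p. Each diet comparison gave an exact permutation p of 0.219 or more, adjusted p of 0.4375 or more. The log2 differences over the 3 times together were −0.10, −0.11 and 0.00372. Without the 3 libraries highest in skeletal muscle miRNAs the cluster ratio differed by 0.27 at week 1 (exact permutation p = 0.1). Leaving out single libraries brought the p of the miR-200b ratio down to 0.111 over the 3 times and 0.114 at week 1 in the same test.

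The family's balance did change with time. Comparisons of the ratios between times were added after the values had been seen, and the authors' labels do not say whether the times were collected or sequenced together, so time and batch cannot be told apart. The cluster ratio was 3.99, 3.73, 3.16 and 3.21 in high-fat libraries and 4.53, 3.54, 3.71 and 3.75 in control libraries at day 1. At week 1 it was 4.90, 4.19, 6.28 and 5.08 in high-fat libraries and 4.65, 3.99, 4.77 and 5.97 in control libraries. At week 3 it was 5.73, 6.12, 6.15 and 5.48 in high-fat libraries and 5.28, 5.93, 5.03 and 6.05 in control libraries, and all 8 libraries were above all 8 of day 1. Between these times 7.17% of all names passed the threshold in level (edgeR). The share of names, or of ratios between other miRNAs, that separated these times without overlap is not given here.

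On the log2 scale the cluster ratio was 2.51 ± 0.11 at week 3 and 1.88 ± 0.17 at day 1 (SD, n = 8 each), a rise of 0.63 or 1.55-fold (exact permutation within diet, p = 0.000408, adjusted p = 0.00327 over 8). It was 0.42 higher at week 1 than at day 1 (exact permutation p = 0.00163, adjusted p = 0.00327). Leaving out any single library kept the week 3 difference at 0.61 to 0.67, and without the 3 libraries highest in muscle miRNAs it was 0.65.

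Of the members in this ratio, those of chromosome 6 had the larger log2 fold changes in level. miR-141-3p was at 208, 289.9, 491 and 282 CPM in high-fat libraries and 485, 274, 413 and 418 CPM in control libraries at week 3, against 399, 610.4, 648 and 341 CPM in high-fat libraries and 413, 732, 721 and 687 CPM in control libraries at day 1. The groups overlapped, and the high-fat libraries of week 3 included the lowest value of all. Its log2 fold change, week 3 over day 1, was −0.67 ± 0.22 (edgeR, adjusted p = 0.058). miR-200c-3p was −0.45 ± 0.18 (adjusted p = 0.1195), while the chromosome 4 members miR-200a-3p, miR-200b-3p and miR-429-3p were at 0.19, 0.06 and 0.07. No member passed this edgeR comparison, where 7.17% of names did. miR-141-3p did pass with DESeq2 (adjusted p = 0.0263) and with limma-voom (adjusted p = 0.0105). Of all 558 names, DESeq2 called 71 and limma-voom called 91, with 1 member in each. miR-141-3p also passed in edgeR without control replicate 1 or high-fat replicate 4 of day 1, high-fat replicate 3 or 4 of week 1, or high-fat replicate 3 of week 3, with log2 fold changes of −0.85 to −0.72 (edgeR, adjusted p of 0.0298 to 0.0494). These were 5 of the 24 libraries left out in turn, and without any other it did not pass. Over the 24 fits the names called ran from 20 to 46. With the level of skeletal muscle miRNAs as a covariate miR-141-3p was at −0.31 (edgeR, adjusted p = 0.372). The muscle list summed to 1276 to 17400.0 CPM in high-fat libraries and 2205 to 13431 CPM in control libraries at week 3, against 24.3 to 3113 CPM in high-fat libraries and 134 to 2444 CPM in control libraries at day 1.

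The arms of the family also shifted with time. The 3p to 5p ratio of miR-200a was higher at week 1 than at day 1 by 0.80 on the log2 scale, or 1.74-fold (exact permutation p = 0.000816, adjusted p = 0.00327), and higher at week 3 than at day 1 by 0.59 (p = 0.02, adjusted p = 0.0267 in the same exact test). As counts per 5p count, it was 19.7, 26.3, 13.5 and 13.3 in high-fat libraries and 21.6, 23.9, 15.5 and 14.9 in control libraries at day 1. At week 1 it was 30.4, 28.4, 35.2 and 35.4 in high-fat libraries and 23.8, 30.4, 40.6 and 29.4 in control libraries, and a single control library of week 1 fell within the day 1 range. The ratio of miR-200b, at 154 to 200.5 over the day 1 libraries, was higher by 0.39 at week 1 (exact permutation, adjusted p = 0.00327) and by 0.35 at week 3 (exact permutation, adjusted p = 0.00849). For miR-203 the same differences were 0.38 and 0.05 (exact permutation p = 0.3445 and 0.94). Over the 167 hairpins with both arms tested the median difference from day 1 was 0.05 at week 1 and 0.03 at week 3. The 5th to 95th percentiles were −0.67 to 0.77 at week 1 and −0.69 to 0.72 at week 3. Of the arm differences above, only that of miR-200a at week 1 lay outside them. At week 1, 8 hairpins had a larger difference than miR-200a, and at week 3, 17 did, against 28 and 30 for miR-200b.

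**Figure D5:**
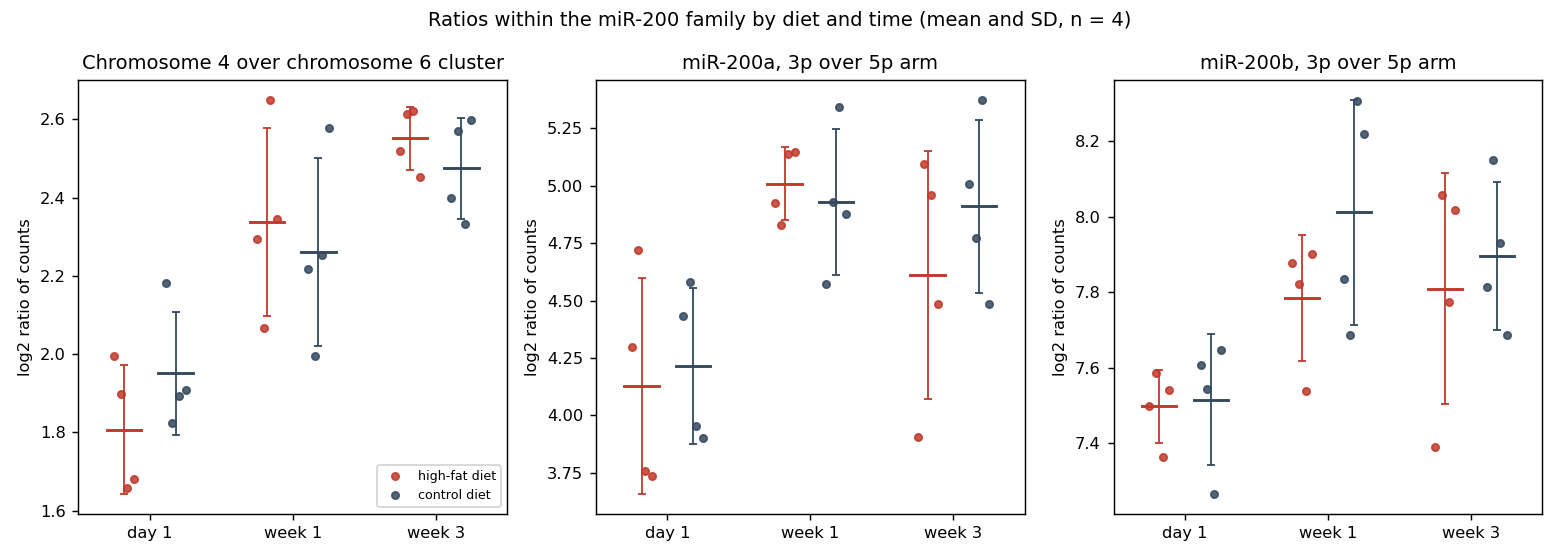
log2 ratio of the chromosome 4 to the chromosome 6 cluster, and of the 3p to the 5p arm of miR-200a and of miR-200b, in each library by time, high-fat left of control (bars are mean and SD, n = 4). The cluster ratio of all 8 week 3 libraries is above that of all 8 day 1 libraries, and the diets overlap at each time.

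In the other comparisons between times no single member passed. At week 1 against day 1, over both diets, miR-200a-3p had the lowest p of the members, with a log2 fold change of 0.43 ± 0.19 (edgeR, adjusted p = 0.198). No member passed there, where 0.896% of names did. At week 3 against week 1 the members had log2 fold changes below 0 in 10 of 10, with a median of −0.22. Over all 558 names 295 were below 0, with a median of −0.02. The members vary together, so these are not 10 separate observations. In this comparison 0% of names passed in edgeR, DESeq2 or limma-voom (47 names and 1 member at an unadjusted p under 0.05 in edgeR). In that comparison miR-200c-3p was at −0.44 ± 0.18 (edgeR, not past the threshold). These 3 comparisons share libraries with each other, so their values are given side by side only.

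Other miRNAs known from epithelia had fold changes in the same direction at week 1 and did not pass the threshold. Of the 21 on the list, 19 were in the table and 15 were tested, and none was called in any comparison. At week 1, 14 of the 15 had a log2 fold change above 0 with a median of 0.54, 3 of them at an unadjusted p under 0.05: miR-205-3p at 1.57 ± 0.67, miR-96-5p at 0.70 ± 0.30 and miR-183-5p at 0.60 ± 0.29 (edgeR, adjusted p of 0.2754 to 0.33). Over all 558 names at week 1, 271 were above 0 with a median of −0.02, and 79 were at an unadjusted p under 0.05. On the list, miR-205-3p, miR-200c-5p and miR-141-5p are arms of the members' own hairpins, and miR-183-5p had r = 0.93 with miR-205-5p. The 14 are therefore not 14 observations separate from each other or from the members. miR-205-3p was also low, at a mean of 2.30 CPM with as few as 1 count in a library. At day 1, 4 of the 15 were above 0 with a median of −0.40, beside 270 of all names with a median of −0.01. At week 3, 4 of the 15 were above 0 with a median of −0.09, beside 234 of all names with a median of −0.05. The most abundant were miR-182-5p, miR-96-5p and miR-183-5p, transcribed from 1 cluster that is known from sensory and other epithelia, at means of 1183, 592 and 577 CPM, and miR-184-3p, known from the cornea, at 209.7 CPM.

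The miRNAs outside the group whose log2 CPM followed the members most closely over 24 libraries differed between the steady and the scattered members. For miR-205-5p they were miR-183-5p (r = 0.93), miR-375-3p (r = 0.76) and miR-182-5p (r = 0.74), and for miR-203-3p they were miR-183-5p (r = 0.79), miR-182-5p (r = 0.73) and miR-205-3p (r = 0.72). For miR-200b-3p they were miR-125b-5p (r = 0.83), miR-31-5p (r = 0.82) and let-7c-2-3p (r = 0.81), and for miR-200c-3p they were miR-872-3p (r = 0.81), miR-708-5p (r = 0.71) and miR-125b-5p (r = 0.69). For miR-203-5p, added after its values were seen, the closest were miR-8114 (r = 0.84), miR-1941-3p (r = 0.79) and miR-7116-3p (r = 0.78), none of them among the miRNAs closest to its 3p arm. These r were picked as the highest of all names and share each library's total, and they carry no test.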

How the data were processed

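The deposited table holds counts per mature miRNA name, which the authors made from 1 µg of total RNA, extracted with TRIzol and made into libraries with a NEBNext kit for small RNA (per the labels' protocols). The submitters' processing notes name FastQC, Trim Galore, Bowtie2, featureCounts and mm10. Their versions, the strand setting and the handling of multiply mapping reads were not given in the sources used here. The reads carry no molecular identifiers in the labels' protocols, so limits set by counts cover counting error only. No 2 libraries of a group agreed within sampling noise.

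Names were kept with edgeR's filterByExpr (minimum count 10, total 15), scaled by TMM and fitted with edgeR 4.0.16 quasi-likelihood (R 4.3.3) over all 24 libraries with 1 mean per group. Benjamini-Hochberg adjustment ran over all 558 names, and SE is the absolute log2 fold change over the square root of F. Ratios used log2 of counts + 0.5 with exact two-sided permutation (Python 3.11.15, scipy 1.17.1). DESeq2 1.42.0, limma-voom with sample quality weights (limma 3.58.1), other scaling and filters, left-out libraries, a replicate block and a muscle covariate were alternatives. The fit was tested on simulated data. Named miRNAs were the 10 members, the 4 most abundant of the other epithelial list with any that passed, and the 3 closest in r to each of 4 members. The members and lists were chosen with earlier results of these data known. Coordinates are 1-based.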

Additional observations from a re-analysis of the deposited data

Results flagged for a closer look

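Within groups of 4 libraries, 84 groups of values were screened for a library whose gap to its nearest neighbour was large against the group's range (Dixon's test), and 3 stood out, where chance alone flags about 1 in 20. miR-203-5p in high-fat week 3 replicate 2 was at 7.735 log2 CPM, against 5.959 to 6.097 in the other high-fat libraries of that week. miR-141-3p was at 8.691 log2 CPM in control day 1 replicate 1, against 9.425 to 9.517 in the other controls of that day. It was at 8.239 log2 CPM in control week 1 replicate 4, against 8.782 to 8.813 in the others. That last library is among the 3 highest in skeletal muscle miRNAs.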

How the results depend on the processing

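Of 966 values recomputed under alternatives other than a single left-out library, 916 kept their direction and their side of the threshold. No ratio difference changed sign among them, and 23 fold changes of members did, all uncalled. Depth was lowest for miR-200b-5p, with as few as 22 counts in a library. The cause of the changes below was not tested.

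For the mean diet difference (high-fat against control over 3 times), miR-200a-5p had a log2 fold change of 0.031 with RLE factors, 0.053 with a mean CPM of at least 10, 0.031 with DESeq2 and 0.048 with limma-voom. Without the 3 libraries highest in skeletal muscle miRNAs it was 0.12, miR-200a-3p was 0.091, miR-200b-3p 0.031, miR-200c-3p 0.00548 and miR-429-3p 0.091. With the muscle covariate miR-200b-5p was −0.005329. At week 3 miR-200a-5p was −0.030 on library totals. At day 1 miR-203-5p was −0.0112 and miR-205-5p −0.19 with limma-voom, and miR-203-5p was −0.039 with the muscle covariate. At week 1 miR-203-3p, at 1.24 with all libraries, was −0.29 without high-fat replicates 1 and 3, chosen after the data were seen. For week 1 against day 1, miR-200c-3p was 0.038 with limma-voom, 0.18 with the muscle covariate and 0.091 without the 3 libraries highest in muscle miRNAs, and with the covariate miR-200b-5p was 0.048, miR-141-3p 0.021 and miR-203-5p 0.15.

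The number of miRNAs called for week 1 against day 1 was 5, and 2 with RLE factors, 8 with a mean CPM of at least 10, 37 with DESeq2, 33 with limma-voom, 0 with the muscle covariate and 0 without the 3 libraries highest in muscle. For week 3 against day 1 it was 40, and 19 with no filter on low counts, 71 with DESeq2 and 91 with limma-voom, and 1 member, miR-141-3p, was called on library totals, with a mean CPM of at least 10, with DESeq2 and with limma-voom. Between diets at week 1 it was 17 with limma-voom and 31 without the 3 libraries highest in muscle, which include 1 member, miR-205-5p. Without those libraries the miR-203 arm ratio differed by 2.18 at week 1 (exact permutation p = 0.1). That p is the smallest the libraries left in each group can give, and every remaining high-fat library was above every remaining control. This was not particular to miR-203. In the same setting and week the cluster ratio differed by 0.27, also with an exact permutation p of 0.1. It was 4.90, 6.28 and 5.08 in the remaining high-fat libraries, against 4.65, 3.99 and 4.77 in the remaining controls. The correlation of miR-200b-3p with miR-203-3p was then 0.395, that of miR-200c-3p with miR-203-3p 0.41 and that of miR-200c-3p with miR-205-5p 0.44, with adjusted p from 0.0613 to 0.0755 by permutation.

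Libraries with the same replicate number did not deviate together: the median r of 60 such pairs was −0.04, 21 were above 0.1, and 4 of 24 libraries correlated best with their own number. With the replicate block, 10 miRNAs were called for week 1 against day 1, miR-200c-3p was at 0.00325 there, miR-200a-5p was at 0.000775 for week 3 against week 1, and the miR-203 arm ratio at week 1 kept its difference of 1.76 with an exact permutation p of 0.125, the smallest that 4 pairs can give.

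Leaving out each library in turn gave these ranges. At day 1 between diets miR-200c-3p ran from −0.34 to 0.066, miR-203-5p from −0.046 to 0.21 and miR-205-5p from −0.32 to 0.33. At week 3 miR-200a-5p ran from −0.11 to 0.26 and miR-203-3p from −1.18 to 0.18. Over the 3 times miR-200a-3p ran from −0.11 to 0.035, miR-200a-5p from −0.076 to 0.085, miR-200b-3p from −0.14 to 0.012, miR-200b-5p from −0.029 to 0.12, miR-200c-3p from −0.15 to 0.022 and miR-429-3p from −0.17 to 0.023. For week 1 against day 1 miR-200c-3p ran from −0.19 to 0.054 and miR-203-3p from −0.034 to 0.59. For week 3 against day 1 miR-200b-3p ran from −0.074 to 0.0998, miR-429-3p from −0.076 to 0.15, miR-203-3p from −0.57 to 0.018 and miR-205-5p from −0.075 to 0.40. For week 3 against week 1 miR-200a-5p ran from −0.12 to 0.12, miR-200b-5p from −0.19 to 0.048 and miR-205-5p from −0.47 to 0.13. Between diets the miR-200a arm ratio ran from −0.28 to 0.042 at day 1 and −0.040 to 0.22 at week 1. That of miR-200b ran from −0.10 to 0.027 at day 1 and −0.17 to 0.053 at week 3. That of miR-203 ran from 1.41 to 2.21 at week 1, −0.47 to 0.62 at week 3 and 0.60 to 0.96 over the 3 times, and from −0.26 to 0.26 for week 3 against day 1. The cluster ratio ran from −0.026 to 0.18 at week 1 and −0.031 to 0.039 over the 3 times. The miRNAs called ran from 0 to 22 between diets at week 1, with 22 without control replicate 4, from 0 to 2 over the 3 times, with 2 without high-fat week 3 replicate 2, from 2 to 12 for week 1 against day 1, with 12 without high-fat week 1 replicate 1, and from 20 to 46 for week 3 against day 1, with 20 without control week 3 replicate 1. The members called there ran from 0 to 1.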
